A study of Rattus norvegicus with 24 samples.

Results

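Potassium channel genes other than the calcium-activated types were followed in the supraoptic nucleus of the rat, where magnocellular neurons make vasopressin and oxytocin and send them to the posterior pituitary. The members were all probe sets whose only gene symbol in the platform annotation began with Kcn, without the calcium-activated Kcnn and Kcnm genes and without Kcnj10. That rule gave 117 of 31099 probe sets, for 68 of 14218 genes with a single symbol. By family, 49 probe sets stood for 31 voltage-gated genes, 25 for 14 inward rectifiers (Kcnj), 16 for 11 two-pore-domain channels (Kcnk), 24 for 11 auxiliary subunits (Kcnab, Kcne, Kcnip) and 3 for the sodium-activated channel Kcnt1.

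RNA of 5 rats was pooled for each Affymetrix array, and every group was of the Sprague Dawley strain and of this tissue, with no genetic change named. The female set compared 4 arrays of control rats (euhydrated) with 4 of rats kept without water for 72 hours. The male set, of rats aged 10 to 12 weeks, compared 5 arrays of control rats with 5 of rats dehydrated for 3 days. The labels give no age for the females. A pool averages 5 animals, and the submitters' design text allows that the pools of a group count as technical as well as biological replicates, so every p-value below measures the spread between pools. The sets also differed in RNA extraction, labelling and software, so that sex and method cannot be told apart between them.

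Of 24 samples, 19 had values and 18 were used. The array left out, labelled as the fifth of dehydrated females, had Avp at 50.59 and Oxt at 25.97, where the 8 female arrays used had Avp at 3644 to 7666 and Oxt at 3001 to 6698 and the male arrays had Avp at 4337 to 5928. Its summed signal was 2909 for 8 neuronal marker genes and 21010 for 7 oligodendrocyte genes, and its median correlation with its own set was 0.816, against 0.937 to 0.973 for the arrays used. The signals had a trimmed mean near 100 on every array as deposited, and their medians lay between 36.1 and 46.47 on the 18 arrays. Log2 fold changes compare dehydrated with control rats on the scale log2(signal rescaled to a trimmed mean of 500, plus 32), which understates the change of dim probe sets, with standard errors from limma's moderated fit and Benjamini-Hochberg adjustment over all 21729 probe sets kept.

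Potassium channels let potassium leave the cell, set the resting potential and shape the return from an action potential. Voltage-gated channels open on depolarisation; among them the Kv4 channels (Kcnd genes), with the calcium-binding KChIP proteins (Kcnip genes) and the dipeptidyl-peptidase-like proteins Dpp6 and Dpp10, carry the fast transient current that delays the next spike in magnocellular neurons. Inward rectifiers hold the membrane near rest and serve neurotransmitter and metabolic signals, and two-pore-domain channels carry the background leak.

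In dehydrated males 9 member probe sets rose and 1 fell at an adjusted p under 0.05, out of 67 tested. The rises were in Kcna1, Kcnd2 (both of its probe sets), Kcnd3, Kcnh1, Kcnip1, Kcnip2, Kcnip4 and Kcnk1, by 0.25 to 0.56 on the log2 scale, and the fall was in Kcnk2. The share called was 14.9% of the members, against 17.7% of all probe sets tested. It was 13.4% for rises, against 8.32%, and 1.49% for falls, against 9.38%. In dehydrated females 1 of 73 members tested passed, a fall in Kcnt1, which is 1.37% against 2.96% of all probe sets. At an unadjusted p under 0.05 the female members were 9 higher and 10 lower, 26% of those tested, against 19% of all probe sets. The higher ones included Kcnc2 (1370558_a_at), Kcne3 (1387160_at) and Kcnj3 (1369740_at), whose control means lay below the filter on low values. These passed the filter only through the dehydrated group, so the 26% rests partly on them and is a description. In bulk tissue, a change in the number of cells of a type and a change in RNA per cell cannot be told apart.

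By family, the median log2 fold change in males was 0.08 over 31 voltage-gated probe sets, of which 5 rose, and 0.09 over 13 auxiliary ones, of which 3 rose. It was 0.09 over 13 inward rectifier probe sets, none of which passed, and -0.12 over 7 two-pore-domain ones, of which 1 rose and 1 fell. The median over all members was 0.06 with 59.7% positive, where all probe sets tested had a median of -0.04 with 43% positive. In females the family medians were -0.03 for voltage-gated, 0.05 for auxiliary, -0.06 for inward rectifier and 0.02 for two-pore-domain members, and -0.59 for the 3 probe sets of Kcnt1. All members together had a female median of -0.03, and so had all probe sets. The members' median standard error was 0.19 in females and 0.14 in males, against 0.17 and 0.12 for all probe sets.

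**Figure D1:**
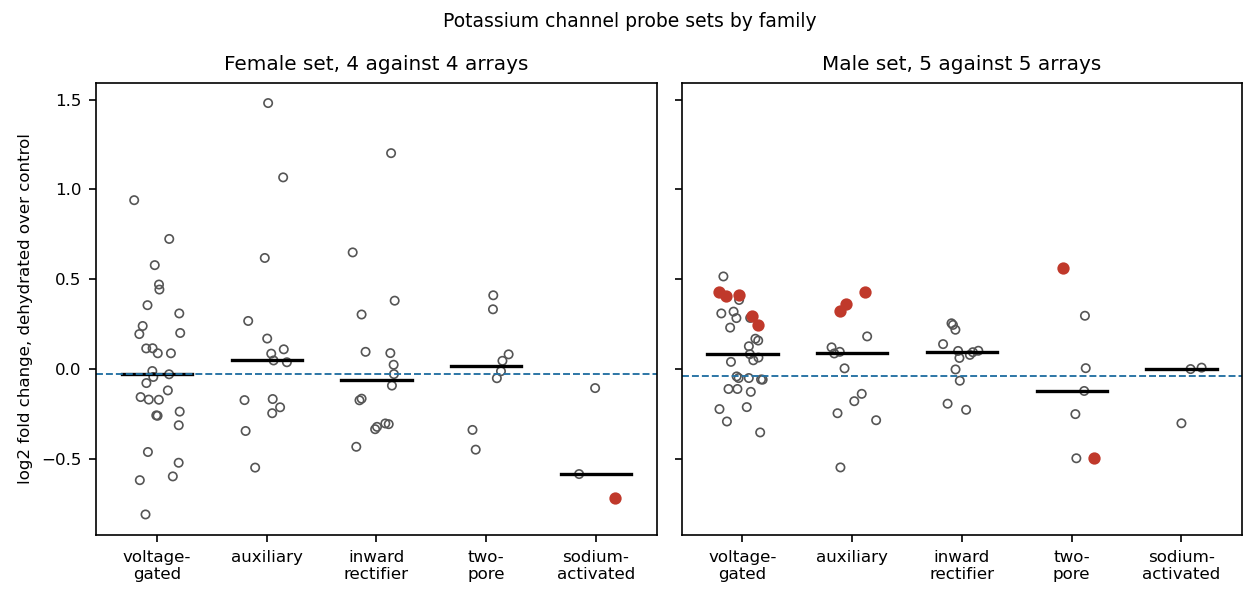
Log2 fold change, dehydrated over control (vertical axis), of every tested member probe set by family, with the female set (73 probe sets) in one panel and the male set (67 probe sets) in the other; filled points passed the threshold, black bars are family medians and the dashed line is the median of all probe sets. The points sit on both sides of 0 in both panels, and the male panel holds 9 called rises and 1 called fall where the female panel holds 1 called fall.

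The promoter windows of the Kv4 subunit Kcnd2 and its partner Kcnip2, which rose in males, are shown with those of Kcnk2, the member that fell in males, as the regions before genes described in detail here. They are RefSeq windows of build GRCr8 with 250 bases before and 50 after the annotated start, given 5′ to 3′ on the strand of the gene: Kcnd2 at chr4:50742235-50742534 on the plus strand, Kcnip2 at chr1:254613849-254614148 on the minus strand, and Kcnk2 at chr13:103494637-103494936 and chr13:103438593-103438892, both on the minus strand. Capitals mark the GC box GGGCGG on either strand; no capitals means that none of the motifs searched was present.
Kcnd2: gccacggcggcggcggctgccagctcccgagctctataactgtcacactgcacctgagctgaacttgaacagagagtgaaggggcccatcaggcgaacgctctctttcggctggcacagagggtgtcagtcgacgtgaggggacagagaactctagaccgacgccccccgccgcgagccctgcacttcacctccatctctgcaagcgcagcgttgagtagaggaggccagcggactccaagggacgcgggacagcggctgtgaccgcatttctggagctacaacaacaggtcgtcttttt
Kcnip2: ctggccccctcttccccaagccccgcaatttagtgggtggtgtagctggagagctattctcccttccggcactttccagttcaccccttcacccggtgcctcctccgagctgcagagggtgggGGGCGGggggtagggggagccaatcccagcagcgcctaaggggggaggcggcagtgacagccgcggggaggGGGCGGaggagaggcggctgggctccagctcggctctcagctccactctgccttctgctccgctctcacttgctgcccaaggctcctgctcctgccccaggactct
Kcnk2, first window: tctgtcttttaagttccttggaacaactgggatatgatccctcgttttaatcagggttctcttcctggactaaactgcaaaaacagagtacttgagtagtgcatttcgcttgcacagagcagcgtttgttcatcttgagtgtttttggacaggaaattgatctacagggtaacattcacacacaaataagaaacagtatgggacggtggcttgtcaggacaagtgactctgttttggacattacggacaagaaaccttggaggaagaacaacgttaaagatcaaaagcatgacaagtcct
Kcnk2, second window: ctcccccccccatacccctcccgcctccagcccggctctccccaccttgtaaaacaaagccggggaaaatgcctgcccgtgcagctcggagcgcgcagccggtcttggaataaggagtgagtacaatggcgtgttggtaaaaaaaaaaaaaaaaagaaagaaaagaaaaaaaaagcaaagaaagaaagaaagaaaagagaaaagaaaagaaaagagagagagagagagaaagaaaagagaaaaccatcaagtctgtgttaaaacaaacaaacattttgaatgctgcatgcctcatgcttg
The GC content was 61.7% for Kcnd2, 67.7% for Kcnip2, and 41.7% and 44.3% for the 2 windows of Kcnk2. Among other called genes it was 77.7% for Kcnd3 and 72.7% for Kcnh1, which rose in males, and 66.7% and 62.7% for the 2 windows of Kcnt1, which fell in females. Of the 68 member genes, 47 had a window, 53 windows in all, with a median GC content of 61.7% against 51.7% for all 33469 windows of the table. The GC box was in 30 of the 53 member windows, which is 56.6%, against 33.1% of all windows. The TATA box (TATAAA) was in 2 of them, 3.77% against 14.2%. The cyclic AMP element TGACGTCA was in 0 of the 53 windows, against 1.83%, and its core TGACG was in 13, 24.5% against 21.2%. The AP-1 element TGANTCA was in 3, 5.66% against 7.33%, and the ATF4 element TGATGNAA in 2, 3.77% against 3.98%. All motifs were searched on both strands and each full cyclic AMP element also counts as its core; these are letter matches and describe the windows only.

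Kcnd2, the Kv4 subunit of somatic and dendritic transient current in many neurons, was measured by 2 tested probe sets. On the first (1379863_at) the male controls read 397.3, 362.2, 450.4, 469.8 and 457.2, and the dehydrated males 468.9, 572.5, 536.3, 486.4 and 472. The means were 427 ± 45.7 and 507 ± 45.4 (SD, n = 5 each), and 1 dehydrated array lay below the highest control. Their log2 difference was 0.25 ± 0.08 (SE; limma, adjusted p = 0.0471). On the second (1387476_at) the male controls read 249.3, 208.1, 171.8, 199.6 and 249.8, and the dehydrated males 313.8, 323.6, 210.7, 313.4 and 281.6. Here 4 of the 5 dehydrated arrays were above every control, and the log2 fold change was 0.41 ± 0.12 (adjusted p = 0.0324). Both of these calls were among the less stable ones, lost in 12 and 10 of the 19 processing alternatives.

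In females the first Kcnd2 probe set read 473.5, 459.2, 452.6 and 488 in controls and 625.3, 638.4, 623.4 and 522.9 in dehydrated rats, with no overlap between the groups. On the log2 scale the change was 0.36 ± 0.10, and its adjusted p of 0.0802 did not pass. The difference, males minus females, was -0.11 ± 0.13 (adjusted p = 0.85). The second read 117.2, 96.37, 96.13 and 130.1 in controls and 162.6, 203.6, 222.7 and 102.1 in dehydrated rats, a log2 fold change of 0.58 ± 0.21 (adjusted p = 0.162). The fourth dehydrated array was the lowest of its group on both. Without it, the second probe set gave 0.80 ± 0.15 with an adjusted p of 0.0285, and the first did not pass. With array weights the first gave 0.38 (adjusted p = 0.0199), and the second did not pass. In 16 of 18 alternatives each probe set stayed uncalled in females, with adjusted p up to 0.744 for the first and 0.469 for the second.

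Kcnd3, another Kv4 subunit, had 3 tested probe sets. The one that passed in males (1378111_at) read 197.9, 236.3, 264, 289.9 and 292 in controls and 317.2, 309.5, 284.1, 339.1 and 312.5 in dehydrated rats, with 4 of 5 dehydrated arrays above every control. Its log2 fold change was 0.29 ± 0.10 (adjusted p = 0.0471), and the call was lost in 11 of 19 alternatives. The other two gave 0.28 (1369144_a_at, adjusted p = 0.0507) and 0.32 (1369145_a_at, adjusted p = 0.226). In females the 3 probe sets gave 0.24, 0.19 and -0.01, with adjusted p-values of 0.311, 0.557 and 0.984. Kcnd1, the remaining Kv4 subunit, gave 0.31 in males (adjusted p = 0.131) and 0.09 in females (adjusted p = 0.789).

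Among the KChIP genes, which modulate Kv4 gating and surface expression, Kcnip2 had the smallest adjusted p of any member in males. Its probe sets 1368639_at and 1370773_a_at were too dim to be tested in either set. The tested one (1373987_at) read 89.3, 94.8, 95.3, 91.3 and 106.2 in control males and 124, 126.8, 127.1, 126.8 and 147.1 in dehydrated males. All 5 dehydrated arrays were above all 5 controls, with means of 130 ± 9.44 and 95.4 ± 6.54 (SD). On the log2 scale the change was 0.43 ± 0.08 (adjusted p = 0.00244), and the call held in all 19 alternatives, with adjusted p from 0.00056 to 0.00861. In females Kcnip2 read 83.61, 81.4, 88.17 and 92.55 in controls and 83.27, 82.81, 113.7 and 90.92 in dehydrated rats. The female groups overlapped, and the log2 fold change was 0.09 ± 0.13 (adjusted p = 0.777). The difference between the sets, males minus females, was 0.34 ± 0.14 with an adjusted p of 0.41.

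Kcnip4 on 1383220_at read 386.7, 491.4, 544.1, 542.9 and 615 in control males and 688, 700, 561.7, 675.4 and 667.3 in dehydrated males. On the log2 scale the change was 0.36 ± 0.10 (adjusted p = 0.0241), with 4 of 5 dehydrated arrays above every control, and the call was lost in 7 of 19 alternatives. In females it was 0.17 ± 0.11 (adjusted p = 0.416). A second probe set of the gene (1370595_a_at) gave the opposite order of the sets. In males it changed by 0.09 ± 0.14, and in females by 1.07 ± 0.33 (adjusted p = 0.107), with readings of 74.29, 23.95, 51.3 and 84.25 in controls and 154.9, 118.3, 156.9 and 68.7 in dehydrated rats. That made the difference between the sets -0.98 ± 0.36 (adjusted p = 0.348). The files do not say which transcripts each probe set detects.

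Kcnip1 (1394097_at) read 240.6, 310.7, 275.9, 303.5 and 341.8 in control males and 343.9, 425.7, 322.3, 388.4 and 366.7 in dehydrated males, with 4 of 5 dehydrated arrays above every control. The log2 fold change was 0.32 ± 0.09 (adjusted p = 0.0275) in males and 0.11 ± 0.12 (adjusted p = 0.653) in females, and the male call was lost in 6 of 19 alternatives. A second tested Kcnip1 probe set (1370781_a_at) gave 0.12 ± 0.18 (adjusted p = 0.686) in males and 0.05 ± 0.27 (adjusted p = 0.943) in females. Kcnip3, also known as the transcriptional repressor DREAM, was not called in either set. Its tested probe set (1376225_at) read 81.5, 66.37, 75.06 and 82.97 in control females and 52.88, 38.76, 58.62 and 51.77 in dehydrated females. These groups did not overlap, yet the log2 fold change of -0.55 had an adjusted p of 0.0754, and in males it was -0.14 (adjusted p = 0.347).

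Dpp6 and Dpp10 were taken from a list of 30 genes whose products bind, traffic or conduct beside potassium channels. Dpp6 rose in males by 0.27 ± 0.07 (adjusted p = 0.0147) and gave -0.16 ± 0.11 in females (adjusted p = 0.457). Dpp10 rose in males by 0.39 ± 0.13 (adjusted p = 0.0499) and gave 0.38 ± 0.13 in females (adjusted p = 0.137). Of 12 Kcnd and Kcnip probe sets tested in males, a grouping made after the values were seen, 6 rose and 0 fell, where 8.32% of all probe sets rose. All of these 6 Kcnd and Kcnip calls except that of Kcnip2 were lost in 6 to 12 of the 19 alternatives. The alternatives are not given here for Dpp6 and Dpp10. In the same male arrays the summed signal of 8 neuronal marker genes was 8118 to 9339 in controls and 9610 to 10510 in dehydrated rats. Of the 8 genes 2 rose by limma. Their log2 fold changes were positive for Snap25, Syt1, Stmn2, Eno2 and Uchl1, and negative for Rbfox3, Nefl and Nefm. Among the other marker lists in males, 3 of 8 magnocellular genes rose. Of 10 mural and meningeal genes 8 fell and 1 rose. Falls were also called in 3 of 8 astrocyte, 3 of 6 microglial and 2 of 3 ependymal and choroid plexus genes tested. By limma 0 of 7 oligodendrocyte and 0 of 7 endothelial genes were called. The part of these shifts in the members' values was not tested.

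**Figure D2:**
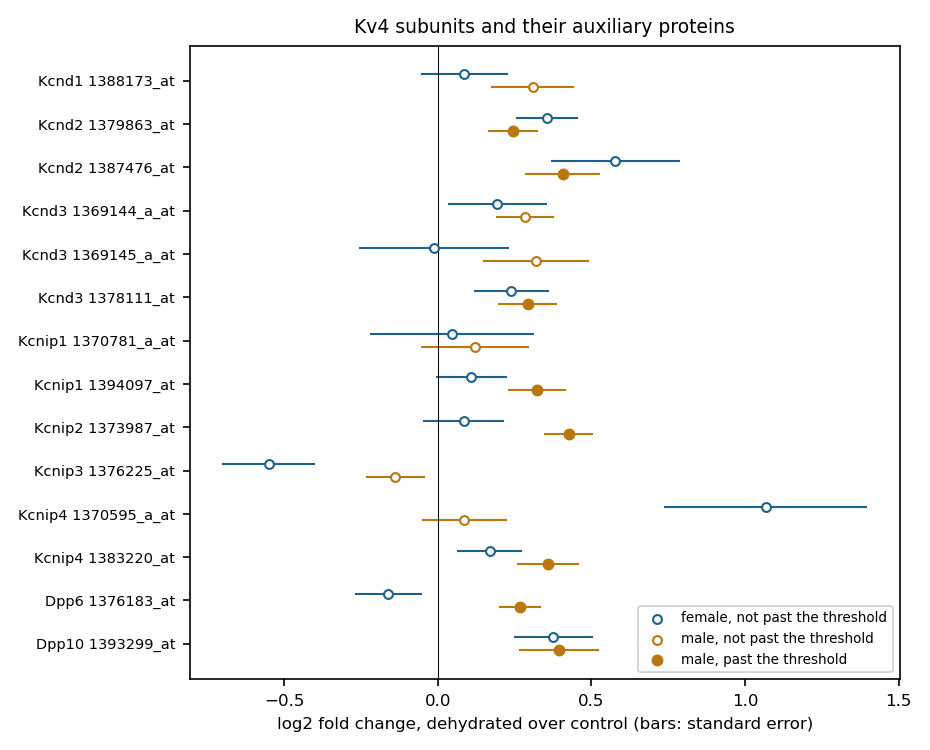
Log2 fold change with its standard error (horizontal axis) of the probe sets of the Kv4 subunits and their auxiliary proteins, in females (blue) and in males (orange), filled where past the threshold. In males the Kcnd values ran from 0.25 to 0.41. In females they ran from -0.01 to 0.58, with Kcnd2 at 0.36 and 0.58, and Kcnip2 was at 0.09.

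Of the whole list of 30 partner genes, 24 were tested in males, of which 7 rose and 4 fell, where 8.32% of all probe sets rose and 9.38% fell, with a median of 0.03 against -0.04 for all probe sets. The rises beside Dpp6 and Dpp10 were Gng3 (0.70, adjusted p = 3.45e-06) and Gnb1 (0.17, adjusted p = 0.0428), subunits of the G proteins that open Kcnj3 and Kcnj6 channels, Rgs7 (0.40, adjusted p = 0.00205), which ends that signal, Cntnap2 (0.27, adjusted p = 0.0324), which clusters Kv1 channels on axons, and the pacemaker channel Hcn3 (0.54, adjusted p = 0.024). The falls were Rgs4 (-0.46), the scaffolds Dlg1 (-0.34) and Dlg4 (-0.29), and Kctd12 (-0.40), a GABA-B receptor subunit. In females 25 were tested; Rgs4 fell by 0.65 (adjusted p = 0.0461) and no other passed.

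Kcna1, a Kv1 subunit of axons and terminals, rose in males. Its probe set read 93.9, 150.1, 106.9, 128.9 and 110.8 in controls and 169.3, 133.2, 154.6, 152 and 180.4 in dehydrated rats, with 1 dehydrated array among the controls and 4 above them. On the log2 scale the change was 0.41 ± 0.12 (adjusted p = 0.0241), and it was lost in 5 of 19 alternatives. In females the readings were 97.03, 50.45, 87.21 and 77.55 against 78.36, 63.83, 83.18 and 35.64, which overlapped, with a log2 fold change of -0.26 ± 0.25 (adjusted p = 0.614). The difference between the sets was 0.67 ± 0.28 (adjusted p = 0.409).

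None of the other Kv1 genes tested passed in either set. In females Kcna2, which pairs with Kcna1 in axons, read 240.4, 316.7, 227.4 and 288 in controls and 225.4, 149.5, 216 and 116.1 in dehydrated rats on 1379092_at, without overlap (-0.62 ± 0.20, adjusted p = 0.113). Kcna4, the transient Kv1 subunit, read 77.52, 118.3, 88.35 and 98.93 against 60.44, 61.17, 66.42 and 68.11, again without overlap (-0.52 ± 0.14, adjusted p = 0.0736). Kcna5 was also lower on all 4 dehydrated arrays (-0.46 ± 0.12, adjusted p = 0.0702). None of the 3 passed, and their male values were -0.22, -0.13 and -0.06. A second tested Kcna2 probe set (1370612_at) had overlapping groups in females, with -0.31 ± 0.20 (adjusted p = 0.419), and gave -0.21 in males.

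Kcnh1, an ether-a-go-go channel subunit, rose in males with a call that held in all 19 alternatives. It read 76.2, 96.1, 105.1, 100.3 and 121.5 in controls and 132.1, 136.7, 138, 120.8 and 150.5 in dehydrated males, so that a single dehydrated array lay just under the highest control. The log2 fold change was 0.43 ± 0.11 (adjusted p = 0.0126), and leaving out 1 array at a time or changing the processing moved it between 0.34 and 0.51. Female arrays read 159.2, 174, 186.9 and 133.6 in controls and 154.7, 140.7, 182.4 and 138.9 in dehydrated rats, with a log2 fold change of -0.08 ± 0.13 (adjusted p = 0.797). The difference was 0.51 ± 0.17 (adjusted p = 0.296). Kcnh2, the ERG subunit, gave 0.04 in males and -0.26 in females.

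Kcnc1, a Kv3 subunit of fast-spiking cells, read 223.2, 291.5, 241.1 and 175.8 in control females and 177.3, 128.3, 140.5 and 154.7 in dehydrated females (-0.60 ± 0.16, adjusted p = 0.0624), and gave -0.06 in males. The silent subunit Kcng2, which modifies other channels, read 34.64, 55.06, 37.17 and 38.32 against 20.55, 20.42, 26.73 and 15.29 in females, without overlap (-0.81 ± 0.21, adjusted p = 0.0629), and gave -0.29 in males (adjusted p = 0.145). Kcnc2 on 1370439_a_at gave 0.28 in males (adjusted p = 0.0991) and 0.12 in females. The M-current subunits Kcnq3 and Kcnq5 gave no call on their tested probe sets, with male values from -0.04 to 0.13 and female values from -0.12 to 0.47.

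**Figure D3:**
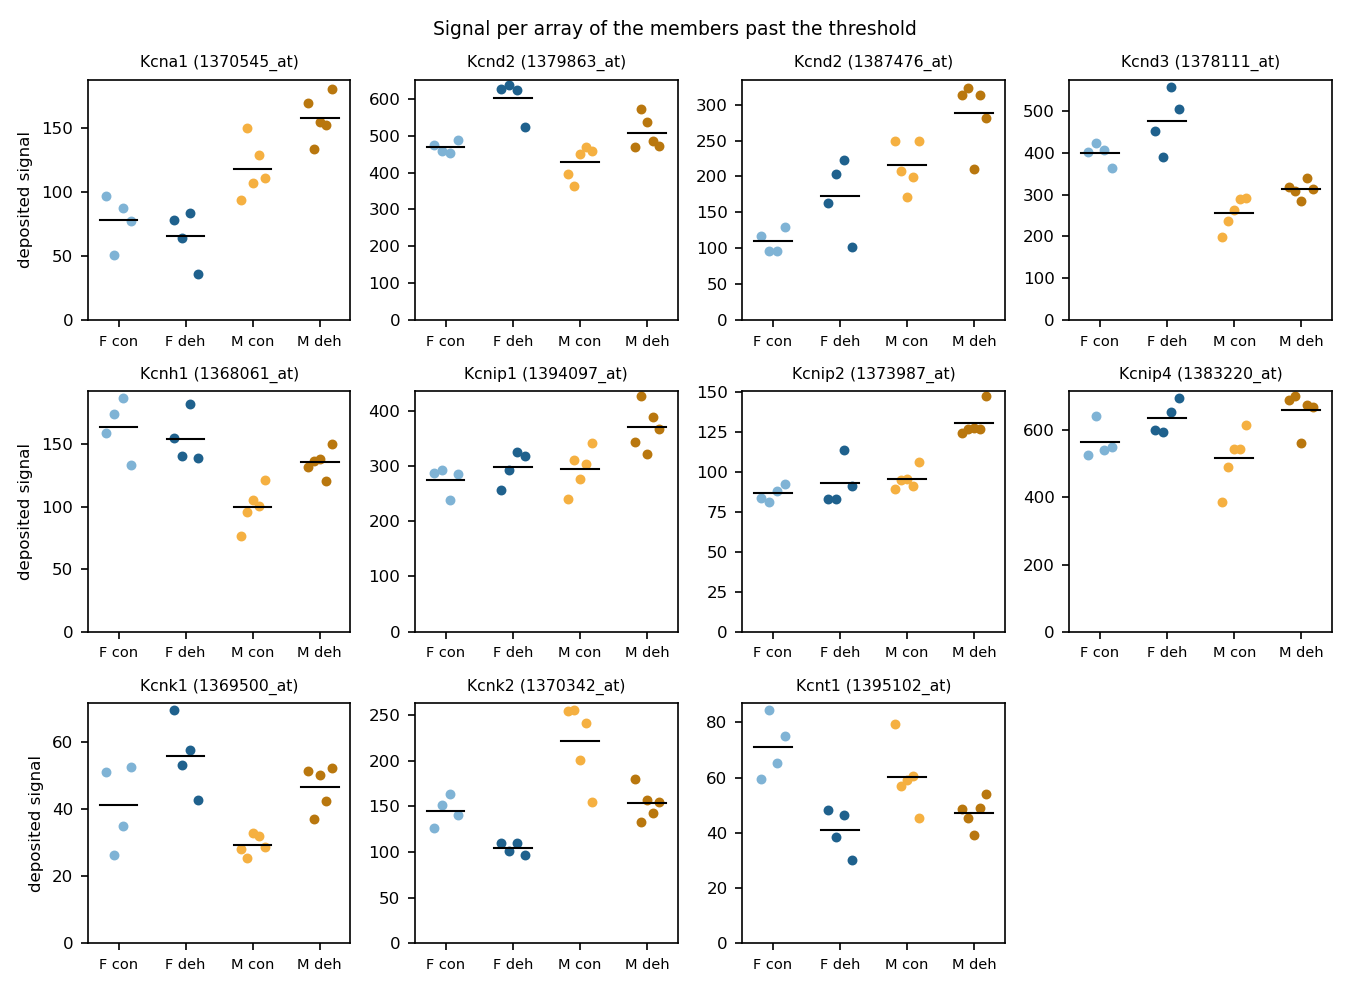
Deposited signal per array (vertical axis, starting at 0) of the 11 member probe sets past the threshold in a set, for control and dehydrated females and males, each point an array pooled from 5 rats and each black bar a group mean. The male groups do not overlap for Kcnip2 and Kcnk1, and in females the groups do not overlap for the first Kcnd2 probe set, Kcnk2 and Kcnt1.

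Among the auxiliary subunits outside the KChIP genes, no probe set passed in either set. Kcne3 is a single-span subunit that alters the gating of several voltage-gated channels. Its first probe set (1387160_at) read 30.59, 4.752, 29.3 and 6.831 in control females and 67.24, 68.04, 40.58 and 39.55 in dehydrated females. The second (1396580_at) read 20.5, 19.09, 22.61 and 23.13 against 52.92, 37.14, 31.05 and 27.34. The female groups did not overlap on either. The control mean of the first lay below the filter on low values, which the probe set passed only through the dehydrated group, so its values are a description. The second gave a log2 fold change of 0.62 ± 0.21 (adjusted p = 0.144). In males the first was too dim to be tested and the second gave 0.10. Kcne4 gave -0.55 in males (adjusted p = 0.0993) and -0.35 in females, and the beta subunit Kcnab2, which binds Kv1 channels, gave -0.18 (adjusted p = 0.0635) and -0.25 on its 2 tested probe sets in males.

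Among the inward rectifiers, 0 of 16 tested probe sets passed in females and 0 of 13 in males by limma, and at an unadjusted p under 0.05 there were 2 in females and 0 in males. Kcnj3, a G-protein-gated subunit, read 25.18, 20.41, 4.227 and 6.431 in control females and 49.77, 36.87, 43.74 and 20.15 in dehydrated females on 1369740_at, whose control mean lay below the filter, so that these values are a description. Its other two probe sets gave 0.30 ± 0.19 and -0.43 ± 0.24 in females, with opposite signs. Kcnj6, its partner subunit, read 95.76, 96.21, 97.33 and 88.4 in control females and 85.09, 69.88, 74.7 and 65.4 in dehydrated females (1369035_a_at; -0.34 ± 0.12, adjusted p = 0.167), without overlap, and -0.19 in males. The other two tested Kcnj6 probe sets were positive in both sets.

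The ATP-sensitive channel subunit Kcnj11 gave -0.32, -0.31 and -0.17 in females and 0.10, 0.08 and -0.07 in males on its 3 probe sets, with no adjusted p under 0.37. Kcnj8, the ATP-sensitive subunit of vascular and mural cells, read 41.95, 5.387, 23.92 and 16.44 in control females, a mean below the filter, and 36.97, 38.14, 25.15 and 32.78 in dehydrated females, with overlap. In males it gave 0.24 ± 0.17 (adjusted p = 0.36). Kcnj16, which joins with Kcnj10 in glia, gave 0.10 and 0.09 in males and 0.09 and -0.17 in females. Kcnj13 was too dim to be tested in either set.

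Two-pore-domain members held the largest rise and the only fall called in males. Kcnk1, a leak channel of neurons and glia, read 28.2, 25.4, 32.9, 31.9 and 28.7 in control males and 51.4, 37.1, 50, 42.5 and 52.3 in dehydrated males, with no overlap. The log2 fold change was 0.56 ± 0.12 (adjusted p = 0.00661), and the call held in all 18 alternatives that tested it. In females it read 50.98, 26.2, 34.89 and 52.4 against 69.43, 53.05, 57.62 and 42.68, and the log2 fold change of 0.41 ± 0.22 did not pass (adjusted p = 0.334). The difference between the sets was 0.15 ± 0.24 (adjusted p = 0.907).

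Kcnk2, the mechanosensitive and lipid-sensitive leak channel TREK-1, fell in males. Its tested probe set (1370342_at) read 254.6, 255.3, 200.7, 241.1 and 155 in controls and 179.9, 132.9, 156.8, 142.6 and 154.9 in dehydrated rats, and 4 of 5 controls were above every dehydrated array. The fifth control sat within the dehydrated range. On the log2 scale the change was -0.49 ± 0.13 (adjusted p = 0.0138), and the call held in all 19 alternatives. In females Kcnk2 read 125.9, 151.5, 163.1 and 140.9 in controls and 110.1, 100.7, 109.8 and 97 in dehydrated rats. Those groups did not overlap, and the log2 fold change of -0.45 ± 0.12 missed the threshold (adjusted p = 0.064). The difference between the sets was -0.05 ± 0.18 (adjusted p = 0.971).

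The fifth male control, the low one for Kcnk2, also had the lowest summed signal of 10 mural and meningeal marker genes among controls, 2686 where the other four had 4381 to 5962 and the dehydrated males 1535 to 3420. Of those 10 genes 8 fell and 1 rose in males. This array also had the lowest control sum for microglial (759.3), endothelial (1898) and astrocyte (15290) markers, and the highest for neuronal markers (9339). The same array was the highest control for 6 of the 9 members that rose. Leaving it out raised the members called in males from 10 of 67 to 14 of 66, with 11 higher and 3 lower, while the share of all probe sets called went from 17.7% to 19.1%. That fit gave -0.61 for Kcnk2 (adjusted p = 0.000663). Its part in these values was not tested. Leaving out other arrays gave 9 members without dehydrated array 3, 10 without control 4, and fewer elsewhere: 6 without dehydrated array 1, 5 without 2, 5 without 4 and 4 without 5, and 6 without control 1, 6 without 2 and 5 without 3. In those fits 13.1% to 17.2% of all probe sets were called. Kcnh1, Kcnip2, Kcnk1 and Kcnk2 passed in each fit that left out an array.

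Kcnk3, the acid-sensitive leak channel TASK-1, pointed in different directions in the sets, at 0.30 ± 0.15 in males (adjusted p = 0.195) and -0.34 ± 0.17 in females (adjusted p = 0.294). The difference of 0.64 ± 0.22 had an adjusted p of 0.319. Kcnk6 gave -0.50 in males on 1387264_at (adjusted p = 0.117), whose dehydrated mean lay below the filter, and -0.12 on the other. Kcnk9, another TASK channel, gave 0.08 in females. Kcnk12 fell under the filter on low values. Its signals were 8.6, 3.3, 1.7, 11.9 and 2.4 in control males and 21.2, 22.6, 22.1, 12.7 and 25.9 in dehydrated males. With no filter it gave 1.24 in males (limma, adjusted p = 0.00638), where 10.6% of all probe sets were called. In females the voltage-gated Kcns1, also under the filter, gave -0.95 with no filter (adjusted p = 0.0473). Both genes were dim and were picked after their values were seen, so these values are a description.

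Kcnt1, the sodium-activated channel that opens as sodium enters during firing, was the single member called in females. Its probe set 1395102_at read 59.51, 84.32, 65.28 and 74.93 in controls and 48.39, 38.45, 46.39 and 30.29 in dehydrated females, with no overlap. The log2 fold change was -0.72 ± 0.17 (adjusted p = 0.0486). The call did not last, being lost in 14 of 18 alternatives, among them each of the 8 fits that left out 1 array, and with all 9 female arrays it was -0.41 (adjusted p = 0.811). The other Kcnt1 probe sets gave -0.59 (1369222_at, adjusted p = 0.18) and -0.11 (1379147_at) in females, and 0.01 and -0.001 in males. In males the called probe set gave -0.30 ± 0.13 (adjusted p = 0.127). In the same female arrays, oligodendrocyte markers summed to 6449 to 9119 in controls and 3705 to 6299 in dehydrated rats, with 4 of 7 genes lower by limma. Mural and meningeal markers summed to 2026 to 2964 and 1462 to 1884, with 2 of 10 genes lower. Magnocellular markers summed to 10380 to 11510 and 12670 to 21340, with 3 of 8 genes higher. The part of these lists in the Kcnt1 value was not tested.

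Groups that did not overlap were counted among the probe sets tested in each set, whatever their p-value. Untested members were left out of the counts. Of these, Kcnab2 (1397663_at), Kcnj1 and Kcns1 lay below without overlap in females, and Kcnk12 above in males. In females all dehydrated arrays were above all controls for 3 members, 4.11% against 5.31% of all probe sets (1 of them, the first Kcne3 probe set, with a control mean below the filter), and below for 8 members, 11% against 7.04%. Those below were Kcna2 (1379092_at), Kcna4, Kcna5, Kcng2, Kcnip3, Kcnj6 (1369035_a_at), Kcnk2 and Kcnt1 (1395102_at). In males 2 members were above, 2.99% against 6.82%, and 0 were below, against 5.95%. Under array weights 13 female members passed, 5 higher and 8 lower, where 7.87% of all probe sets did. Among them were Kcnd2, Kcna4, Kcna5, Kcnc1, Kcng2, Kcnip3 and Kcnk2. The higher ones also included the first Kcne3 probe set and Kcnj3 (1369740_at). Both of these had a control mean below the filter, so their part of the count is a description.

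The sets were then compared directly. The difference between the male and female effects was tested for 69 members and 0 passed by limma, against 0.0322% of all probe sets. At an unadjusted p under 0.05, males minus females was above 0 for 10 members, 14.5% against 4.73%, and below 0 for 2, 2.9% against 5.29%. Of the 10, Kcna5, Kcnc1, Kcng2 and Kcnip3 were negative in both sets, and Kcnt1 (1369222_at) was at 0.007 in males. Kcna1, Kcnh1, Kcnip2, Kcnk3 and Kcns3 were positive in males. The 2 below 0 were Kcnip4 (1370595_a_at) and Kcnj3 (1369740_at), the latter with a female control mean below the female filter. The sign was the same in both sets for 48 of 64 members tested in both, which is 75%, against 68.1% of all probe sets, and the log2 fold changes had a correlation across those probe sets of 0.52 against 0.54. Each set has its own controls; probe sets of a gene are not independent. Of the 10 members called in males, 8 had the same sign in females, against 88.5% of all probe sets called in males; Kcna1 and Kcnh1 were the exceptions.

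**Figure D4:**
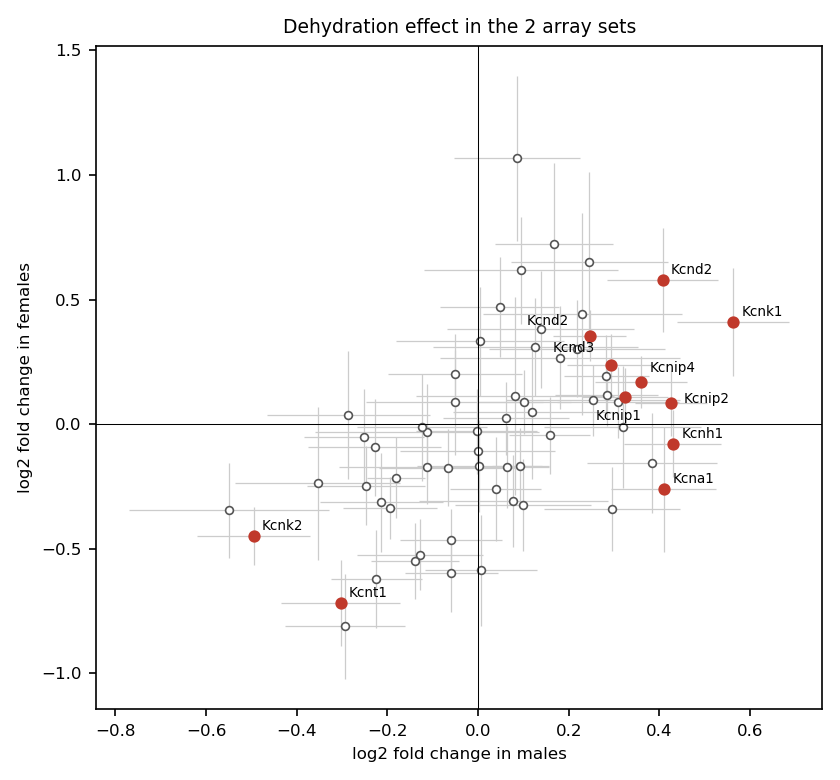
Log2 fold change in females (vertical axis) against that in males (horizontal axis) for the 64 member probe sets tested in both sets, with grey bars for the standard errors and filled points for members past the threshold in a set. Kcnk2 lies low on both axes at -0.45 and -0.49, both Kcnd2 points lie high on both, and Kcna1 and Kcnh1 lie to the right and below 0.

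Members not tested were accounted for separately. Of the 117 probe sets, 76 passed the filter in at least 1 set, 64 in both, and 41 in neither. The untested ones had a median of 7.81 for their mean signals and none exceeded 38 on the 18 arrays. For 18 genes no probe set was tested: Kcna3, Kcnb2, Kcne1, Kcnh4, Kcnh5, Kcnh7, Kcnh8, Kcnj1, Kcnj2, Kcnj9, Kcnj12, Kcnj13, Kcnk5, Kcnk10, Kcnk12, Kcnq1, Kcns1 and Kcns2. The mean of controls alone lay below the filter for 5 of 73 members tested in females and 2 of 67 in males. That of dehydrated rats alone did so for 0 and 3. None of these was called in the reported fits. Kcne3 (1387160_at) and Kcnj3 (1369740_at) passed in females under array weights and in one fit of the 4 groups. Of genes with several tested probe sets, 6 of 17 in females and 5 of 15 in males had probe sets of opposite sign.

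**Figure D5:**
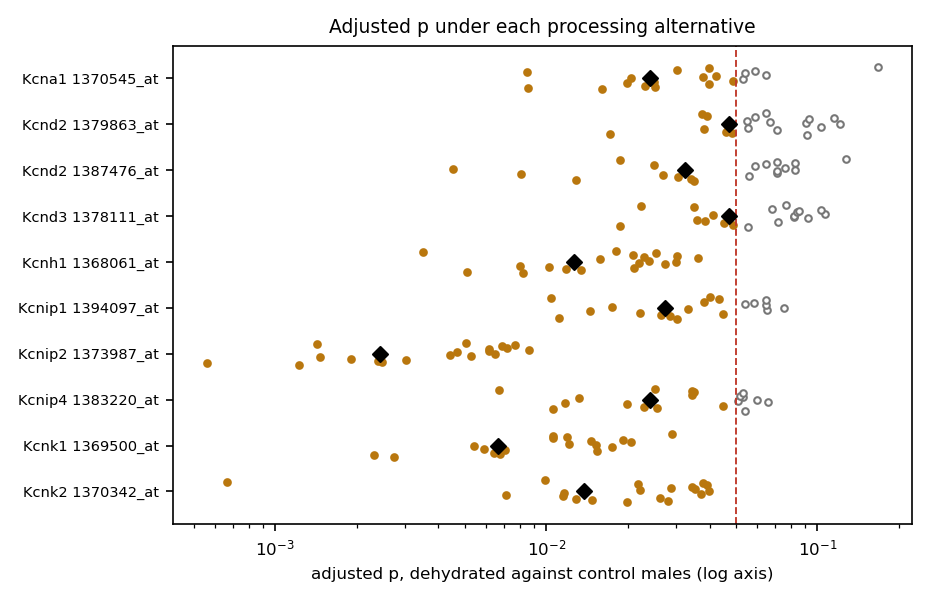
Adjusted p for dehydrated against control males (horizontal log axis) of the 10 member probe sets called in males, with a diamond for the reported fit, a circle for each processing alternative (open where above 0.05) and a dashed line at 0.05. All points of Kcnip2, Kcnh1, Kcnk1 and Kcnk2 lie under 0.05, where the first Kcnd2 probe set crosses it in 12 of 19 alternatives.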

How the data were processed

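Signals were deposited as intensity values on a linear scale, 1 per probe set and array. The authors made them with GCOS 1.2 for the male and MAS5 for the female arrays, per the submitters' processing notes; background and summary settings are not given in the sources used here. Lactating rats were not analysed here, since their 5 columns held no values. Signals were put on a common 2% trimmed mean of 500, and log2 was taken after adding 32. Without the 57 control probe sets, probe sets above the 30th percentile of mean log2 were kept, 21729 per fit. limma 3.58.1 in R 4.3.3 (lmFit, eBayes with trend) was run per set, with Benjamini-Hochberg adjustment, and was tested on simulated data. Levels printed are the deposited signals; levels of different probe sets were not compared. Precision is limited by the number of arrays. Of all probe sets, 20832 had a single gene symbol and 436 several, per the platform annotation.

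The members, the partner and marker lists and the alternatives were chosen with earlier results of these data known. Genes named with all values were the members past the threshold, up to 3 genes per family, and a list of channels described in magnocellular, glial or vascular cells; some genes of that list are not reported here. Genes named beyond that rule (Kcna5, Kcnc2, Kcnd1, Kcne3, Kcne4, Kcng2, Kcnab2, Kcnk12, Kcns1, the second Kcnip1 and Kcnip4 probe sets) were chosen after their values were seen. Python 3.11.15 with matplotlib 3.10.9 drew the plots.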

Additional observations from a re-analysis of the deposited data

Results flagged for a closer look

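In 9 of 152 group and probe set combinations 1 array stood apart from the others of its group, where chance gives about 1 in 20. Kcnd2 (1379863_at) was at 522.9 on dehydrated female array 4, against 623.4 to 638.4 on the other three. Kcnip1 (1394097_at) was at 237.7 on control female array 3, against 284.5 to 292.7. Kcnip2 was at 147.1 on dehydrated male array 5, against 124.0 to 127.1, all above the controls. Kcnip4 (1383220_at) was at 561.7 on dehydrated male array 3, against 667.3 to 700.0. Kcnd3 (1369145_a_at) was at 46.3 on dehydrated male array 1, against 25.0 to 28.6. Kcnj16 was at 130.7 (1370076_at) on dehydrated male array 2, against 100.2 to 106.5, and at 202.3 (1373991_at) on control female array 2, against 272.9 to 279.0. Kcnj6 (1369034_at) was at 22.8 on dehydrated male array 5, against 15.2 to 17.0. Kcnt1 (1369222_at) was at 28.96 on control female array 2, against 56.6 to 58.83. The causes were not tested. No member's difference between the sets passed the threshold.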

How the results depend on the processing

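Of 1665 values of named members under the alternatives, 1511 kept direction and side of the threshold, 65 lost a call, 25 gained one and 64 changed sign. The number of members called in females, 1 as reported, was 0 with quantile normalization, median centring, an offset of 1, no mean-variance trend or all 9 female arrays, 13 with array weights (7.87% of all probe sets called), 14 in one fit of the 4 groups (10.7%, against 2.96% as reported), and 0 to 1 when 1 array was left out; array 5 of dehydrated females left 1 of all probe sets called. In males, 10 as reported, it was 5 without a mean-variance trend, 6 in one fit of the 4 groups (all probe sets 14.4% and 10.4%, against 17.7%) and 4 to 14 when 1 array was left out. Median centring moved the male median of all probe sets from -0.04 to 0.035 and gave 13 members, 12 higher and 1 lower. The female counts with array weights and in one fit of the 4 groups included Kcne3 (1387160_at) and Kcnj3 (1369740_at). The control means of both lay below the filter. No difference between the sets passed under any alternative. Family medians moved to -0.16 for female auxiliary and -0.013 for male two-pore-domain members with no filter, to -0.25 for the latter with a filter at the 50th percentile, and to -0.36 for female Kcnt1 with all 9 arrays. The causes were not tested.

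Signs changed in females for Kcnd3 (1369145_a_at; 0.015 with quantile normalization, 0.03 with median centring, 0.002 with an offset of 1, 0.17 with array weights, 0.20 with all 9 arrays) and Kcnq5 (1391314_at; -0.045 with array weights). With all 9 arrays they also changed for Kcna1 (0.51), Kcnd3 (1369144_a_at -0.04, 1378111_at -0.15), Kcnh2 (0.027), Kcnip1 (-0.064), Kcnip4 (1383220_at -0.39) and Kcnq3 (1388052_a_at 0.028). In males they changed for Kcnj11 (1391007_s_at; 0.011 with quantile normalization, 0.01 with median centring), Kcnt1 (1379147_at; 0.071 with quantile normalization, 0.075 with median centring, 0 with an offset of 1), Kcnc1 (0.017 with median centring) and Kcnq5 (1379212_at; 0.035 with median centring, 0.033 with array weights). With all 19 arrays the difference between the sets changed sign for Kcna1 (-0.10), Kcnd2 (1379863_at, 0.001), Kcnk1 (-0.10) and Kcnk2 (0.11).

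With 1 array left out, values crossed 0 in females for Kcnd3 (1369145_a_at, -0.25 to 0.13), Kcnip2 (-0.012 to 0.13), Kcnj16 (1370076_at, -0.022 to 0.15), Kcnk9 (-0.062 to 0.19) and Kcnq5 (1391314_at, -0.20 to 0.49). In males they did so for Kcnc1 (-0.12 to 0.015), Kcnj11 (1387698_at, -0.073 to 0.22; 1391007_s_at, -0.16 to 0.085), Kcnq3 (1369005_at, -0.067 to 0.31), Kcnq5 (1379212_at, -0.12 to 0.10; 1379510_at, -0.049 to 0.14; 1391314_at, -0.11 to 0.23) and Kcnt1 (1369222_at, -0.03 to 0.066; 1379147_at, -0.11 to 0.12). The difference between the sets did so for Kcnd3 (1378111_at, -0.038 to 0.13) and Kcnk2 (-0.16 to 0.019). No paired analysis was possible because the labels of control and dehydrated arrays carry no shared replicate numbers. Dim probe sets limit what can be seen: 41 members were below the filter in both sets.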
